A study of Mus musculus with 6 samples.

Results

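Rsad2, Cmpk2, Bst2, Samhd1, Mx1, Mx2, Parp9, Parp14, Dtx3l and Xaf1 are antiviral effector genes that cells transcribe in response to interferon. They were taken by gene name from the count table, where each of the 10 names matched 1 row among 55804, and each was among the 14651 genes tested. RNA had been sequenced from C2C12, mouse muscle precursor cells that stop dividing and form multinucleate myotubes in low serum. Cells of both groups were grown with 20% fetal bovine serum and taken after 3 days in differentiation medium with 2% horse serum. Of the 2 groups, Ctrl-gRNA carried a control guide RNA and is labelled WT, and Prr33-gRNA carried a CRISPR/Cas9 guide RNA against Prr33 and is labelled as a PRR33 knockdown. Each group had 3 libraries. No more than a single line is named for each guide, so an effect of the guide and a difference between derived lines cannot be told apart. No interferon or virus treatment is named in the labels of either group.

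Cells that bind interferon at their surface activate transcription factors that bind a DNA motif called the interferon-stimulated response element and switch on many antiviral genes. The genes described here act at different steps of a virus life cycle. Rsad2 encodes viperin, an enzyme that makes a chain-terminating nucleotide from CTP, and Cmpk2, its neighbour, encodes a mitochondrial nucleotide kinase. Mx1 and Mx2 encode dynamin-like GTPases, Bst2 encodes tetherin, which holds budding virus particles at the cell surface, and Samhd1 encodes an enzyme that breaks down deoxynucleotides. Parp9 and Parp14 belong to the ADP-ribosyltransferase family, Dtx3l encodes the ubiquitin ligase partner of Parp9, and Xaf1 encodes a binding partner of the apoptosis inhibitor XIAP.

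The Ctrl-gRNA libraries held 17006381 to 19118010 counts and the Prr33-gRNA libraries 17412383 to 19471762. Prr33 transcript, the labelled target, gave 1137, 990 and 913 reads under the control guide. Under its own guide it gave 793, 829 and 848, a log2 fold change of -0.42 (SE 0.06, edgeR adjusted p = 1.37e-06). In either direction 52.1% of all tested genes passed the test, 3740 of them (25.5%) upward and 3899 downward in Prr33-gRNA. Of 10 skeletal muscle markers each was tested, and 8 were lower and 2 higher, with a summed level of 30091 to 30658 CPM (counts scaled to library size) in Ctrl-gRNA and 15718 to 16614 CPM in Prr33-gRNA. Negative log2 fold changes below mean less transcript in Prr33-gRNA, and passing the test means an adjusted p below 0.05 in edgeR's quasi-likelihood test.

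Each of the 10 antiviral effectors was lower in the Prr33-gRNA libraries, and 0 were higher. Among all tested genes 26.6% were called lower. In each of the 10 genes every Prr33-gRNA library lay below every Ctrl-gRNA library in CPM, which held for 29.3% of all tested genes. All 10 also fell at least 2-fold, as did 7.96% of tested genes. Of these, 3 had entered the test through their Ctrl-gRNA levels alone, as given below. The median log2 fold change was -2.95 over the 10 genes and -0.0023 over all tested genes. The genes divided by size of the fall into Rsad2, Cmpk2 and Mx1, which fell by more than 6 on the log2 scale, and the other 7, which fell by 1.28 to 3.39. In these bulk libraries fewer expressing cells and less RNA per cell cannot be told apart. None of the 10 genes lies on chromosome 14, where 361 of 400 tested protein-coding genes were lower, with a median log2 fold change of -0.90.

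**Figure D1:**
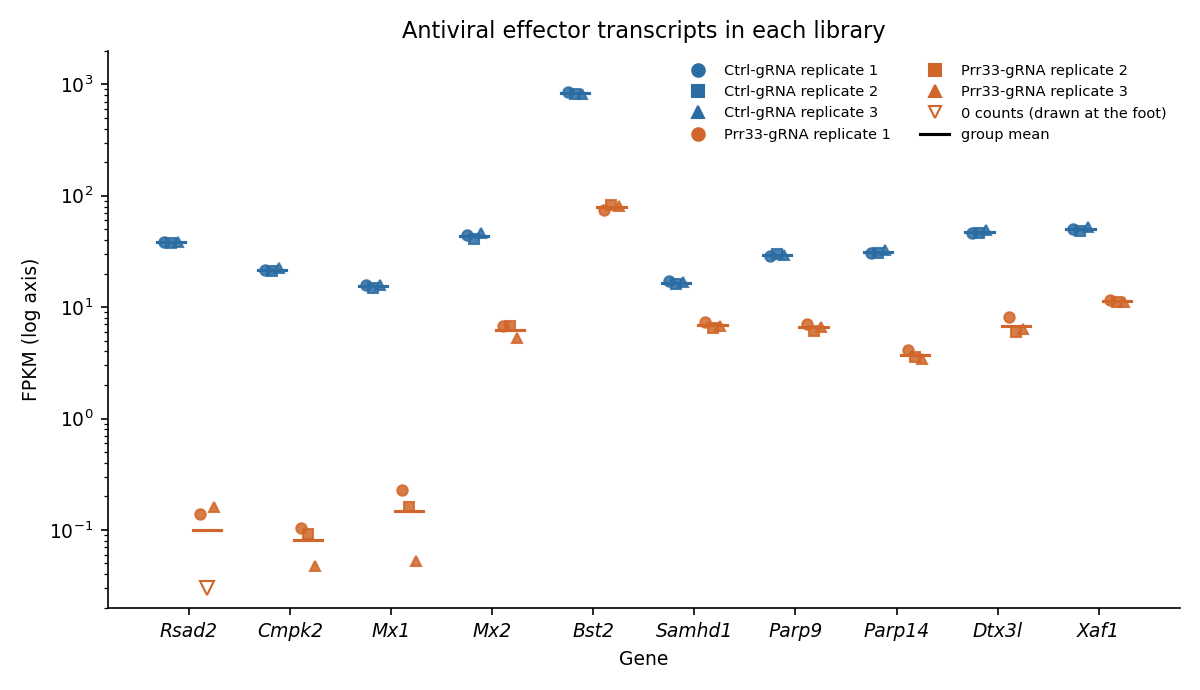
Deposited FPKM (fragments scaled to gene length and library size) of the 10 antiviral effector genes in each of the 6 libraries, on a log axis, with lines at the group means and the 1 value of 0 drawn at the foot. The Prr33-gRNA points of Rsad2, Cmpk2 and Mx1 lie at or below 0.229 FPKM, whereas those of Bst2 lie between 74.9 and 82.6 FPKM.

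Rsad2 and Cmpk2 showed the deepest falls. The 2 genes lie next to each other on chromosome 12 (mm10), Rsad2 at 26442746 to 26456452 on the minus strand and Cmpk2 at 26469204 to 26479837 on the plus strand, with their starts 12752 bases apart and facing away from each other. Rsad2 (ENSMUSG00000020641) gave 3116, 2685 and 2829 reads under the control guide and 11, 0 and 14 under the Prr33 guide. Transcript was thus abundant in each control library and near the limit of detection in the others, with no read in Prr33-gRNA replicate 2, where 3 counts would be 0.166 CPM. The level was 166 ± 3.25 CPM (SD, n = 3) against 0.432 ± 0.378 CPM, a log2 fold change of -8.53 (SE 0.21, edgeR adjusted p = 2.26e-09). As a ratio of group totals, 8630 counts against 25, Rsad2 was 376-fold lower, with a 95% counting interval of 255 to 582. Rsad2, Cmpk2 and Mx1 passed the low-count filter (0.566 CPM) through the Ctrl-gRNA libraries alone. The Prr33-gRNA libraries past that level numbered 2 for Rsad2, 0 for Cmpk2 and 2 for Mx1. The Prr33-gRNA libraries alone would not have passed Rsad2, Cmpk2 or Mx1, so their being tested depended on their Ctrl-gRNA levels. The remaining 7 passed in either group.

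Cmpk2 (ENSMUSG00000020638) gave 1672, 1464 and 1572 reads under the control guide and 8, 7 and 4 under the Prr33 guide. The groups were far apart and every Prr33-gRNA library held a few reads. The level went from 90.8 ± 2.45 to 0.340 ± 0.124 CPM (SD, n = 3), with a log2 fold change of -8.05 (SE 0.13, edgeR adjusted p = 1.83e-32). The ratio of totals was 270 (95% counting interval 173 to 449). The intervals of 2 SE around the fold changes of Rsad2 and Cmpk2 overlapped, and that of Cmpk2 did not reach that of Mx1, the next in size. For Rsad2, Cmpk2 and Mx1 the intervals of 2 SE are narrower than counting error alone, so these SE understate the uncertainty. By the wider counting intervals Rsad2 and Cmpk2 overlapped as well, and Cmpk2 did not reach Mx1 (76.2 to 160). The ratio of Rsad2 to Cmpk2 in FPKM was 1.76 in Ctrl-gRNA totals (95% counting interval 1.70 to 1.82) and 1.26 in Prr33-gRNA totals (0.668 to 2.43), so a change in the ratio was not detectable at this depth. These intervals hold counting error alone, because sequenced copies of 1 molecule cannot be told from separate molecules here.

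The promoters of this pair and of Bst2 are shown so that a response element can be looked for in them. They include both of the 2 promoters with a match among the 6 that were found. Each is the RefSeq stretch of GRCm38.p6 from 250 bases before the start in RefSeq to 50 after, read 5′ to 3′ on the strand of the gene. For Cmpk2, Bst2, Samhd1 and Dtx3l the RefSeq start is not the start of the gene in the deposited table. Capitals mark matches on either strand to the core of the interferon-stimulated response element, spelled GAAA, any 2 bases, GAAA. Rsad2 is chr12:26456403-26456702 on the minus strand, Cmpk2 is chr12:26468965-26469264 on the plus strand, and Bst2 is chr8:71537423-71537722 on the minus strand.
Rsad2: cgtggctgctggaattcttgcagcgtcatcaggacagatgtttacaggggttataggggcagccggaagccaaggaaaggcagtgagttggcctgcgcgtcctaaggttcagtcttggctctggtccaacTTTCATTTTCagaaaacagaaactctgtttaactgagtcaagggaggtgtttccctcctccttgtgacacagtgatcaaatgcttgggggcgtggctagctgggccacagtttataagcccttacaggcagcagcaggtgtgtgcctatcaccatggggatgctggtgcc
Cmpk2: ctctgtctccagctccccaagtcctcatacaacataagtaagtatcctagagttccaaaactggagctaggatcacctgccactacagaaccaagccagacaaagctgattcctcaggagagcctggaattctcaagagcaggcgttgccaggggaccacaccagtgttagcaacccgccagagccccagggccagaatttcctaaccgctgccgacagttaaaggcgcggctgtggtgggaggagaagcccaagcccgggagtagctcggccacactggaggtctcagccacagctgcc
Bst2: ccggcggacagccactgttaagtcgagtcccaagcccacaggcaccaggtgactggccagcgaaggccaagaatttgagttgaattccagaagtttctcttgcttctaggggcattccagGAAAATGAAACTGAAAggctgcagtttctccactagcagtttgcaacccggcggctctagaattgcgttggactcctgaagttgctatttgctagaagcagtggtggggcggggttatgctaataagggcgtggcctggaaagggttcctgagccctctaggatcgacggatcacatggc

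The Rsad2 window held 1 match, TTTCATTTTC, on the opposite strand, from position -120 counted from the RefSeq start. The Bst2 window held 2 overlapping matches, GAAAATGAAA and GAAACTGAAA, from positions -130 and -124. The Cmpk2 window held 0 matches. Promoters of 6 of the 10 genes were matched by symbol in the RefSeq table, and besides these they were those of Samhd1, Xaf1 and Dtx3l, each with 0 matches to this core. The core was found in 3.44% of all 32851 promoters of the same length. The motif TTCNNNGAA, the gamma-activated site, which reads the same on both strands, was found in the windows of Bst2 and Samhd1 and in 8.30% of all promoters. These matches describe letters in the windows and not binding.

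Mx1 and Mx2 lie on chromosome 16, Mx1 at 97447035 to 97462907 on the minus strand and Mx2 at 97535308 to 97560900 on the plus strand. In the mouse, Mx1 protein acts in the nucleus and Mx2 protein in the cytoplasm, and many laboratory strains carry defective alleles of them. The deposited table classes both as polymorphic pseudogenes, GENCODE M21 classes Mx1 as protein-coding, and the alleles carried by C2C12 were not analysed here. Mx1 (ENSMUSG00000000386) gave 1128, 934 and 1018 reads under the control guide and 16, 11 and 4 under the Prr33 guide, a level of 59.3 ± 2.41 CPM (SD, n = 3) against 0.559 ± 0.337 CPM. It was among the genes that came close to 0, with a log2 fold change of -6.74 (SE 0.16, edgeR adjusted p = 3.61e-25) and a ratio of totals of 108 (95% counting interval 76.2 to 160).

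Mx2 (ENSMUSG00000023341) stayed readily detectable. Its levels were 161, 150 and 167 CPM in Ctrl-gRNA and 24.7, 24.3 and 19.2 CPM in Prr33-gRNA, with no overlap between groups. Mx2 fell, with a log2 fold change of -2.81 (SE 0.07, edgeR adjusted p = 2.52e-21). Per kilobase, Mx1 transcript stood at 0.355 of Mx2 in Ctrl-gRNA (0.346 to 0.360 over the libraries) and at 0.020 in Prr33-gRNA (0.00995 to 0.0336). The log2 ratio of counts moved from -1.43 ± 0.03 to -5.58 ± 0.91 (SD, n = 3), the farthest of the 3 ratios tested. An exact two-sided permutation test gave p = 0.1, the smallest that 3 libraries against 3 allow, here and for both ratios below (Benjamini-Hochberg adjusted 0.1 over the 3). Of the distinct stretches of 50 bases in Mx2 transcripts 4.38% also occur in Mx1, so a small part of the reads could belong to either gene.

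**Figure D2:**
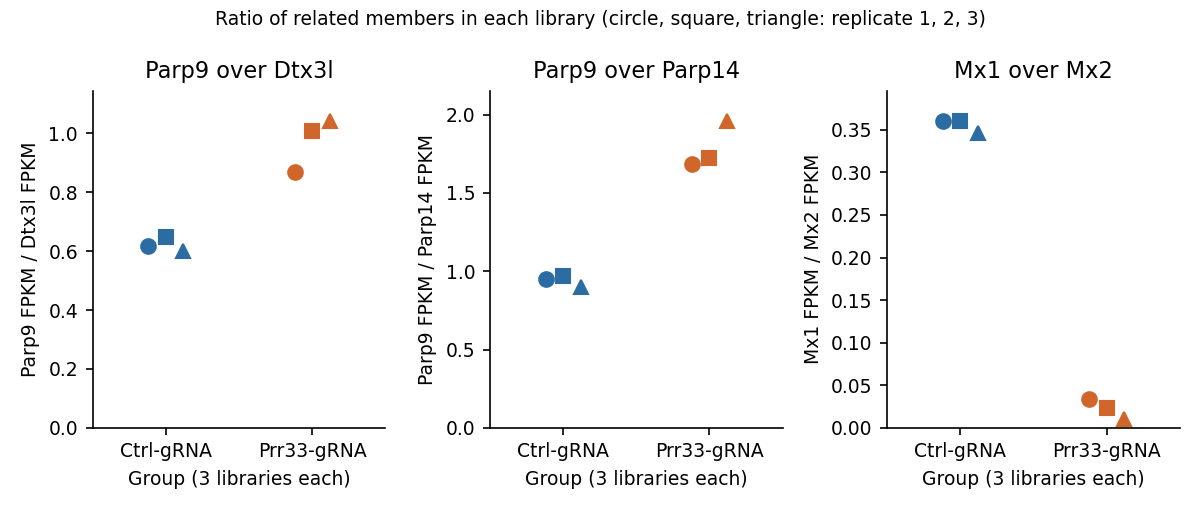
Ratio of deposited FPKM between related antiviral effectors in each library, with Ctrl-gRNA in blue and Prr33-gRNA in orange and all axes starting at 0. Parp9 over Dtx3l rises from 0.601 to 0.649 in Ctrl-gRNA to 0.869 to 1.04 in Prr33-gRNA, and Mx1 over Mx2 falls to at most 0.0336.

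Bst2 was the most abundant of the 10 genes in both groups. It lies on chromosome 8 at 71534255 to 71537456 on the minus strand (ENSMUSG00000046718). Its levels were 773, 738 and 746 CPM in the Ctrl-gRNA libraries and 67.7, 74.6 and 73.5 CPM in the Prr33-gRNA libraries. Per kilobase, where genes can be set side by side, it had 827 ± 18.7 FPKM against 79.5 ± 4.05 FPKM (SD, n = 3), which put it above 99.8% and 96.6% of tested genes. Bst2 fell, with a log2 fold change of -3.39 (SE 0.05, edgeR adjusted p = 4.32e-34). Bst2 made up 73.1 to 74.3% of the summed FPKM of the 10 genes in Ctrl-gRNA, against 62.1 to 67.2% in the other group.

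Samhd1 changed least. This gene, on chromosome 2 at 157097533 to 157135265 on the minus strand (ENSMUSG00000027639), had 157, 149 and 153 CPM in Ctrl-gRNA and 68.0, 59.7 and 61.8 CPM in Prr33-gRNA. The groups did not overlap. Samhd1 fell, with a log2 fold change of -1.28 (SE 0.05, edgeR adjusted p = 2.28e-20), so Prr33-gRNA kept 41.2% of the control level (95% counting interval 39.6 to 42.9%), the highest share among the 10 genes.

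Parp14, Dtx3l and Parp9 are neighbours on chromosome 16. Dtx3l (35926511 to 35939151, minus strand) and Parp9 (35938470 to 35972605, plus strand) start 681 bases apart with their first parts overlapping, and Parp14 (35832874 to 35871544, minus strand) follows. Parp14 (ENSMUSG00000034422), a mono-ADP-ribosyltransferase with macrodomains, had 285, 289 and 305 CPM in Ctrl-gRNA and 38.8, 32.9 and 31.9 CPM in Prr33-gRNA. It fell, with a log2 fold change of -3.09 (SE 0.06, edgeR adjusted p = 8.71e-29), the largest fall of the 3 neighbours. Dtx3l (ENSMUSG00000049502) had 269, 265 and 282 CPM against 46.3, 34.5 and 36.9 CPM, with a log2 fold change of -2.80 (SE 0.08, edgeR adjusted p = 1.90e-11). Prr33-gRNA replicate 1 stood above the other Prr33-gRNA libraries for both genes. Parp9 (ENSMUSG00000022906) had 142, 146 and 144 CPM against 34.2, 29.7 and 32.7 CPM, with a log2 fold change of -2.16 (SE 0.06, edgeR adjusted p = 5.45e-26).

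The fall was thus uneven along this locus. In FPKM, Parp9 stood at 0.622 of Dtx3l in Ctrl-gRNA (0.601 to 0.649) and 0.970 in Prr33-gRNA (0.869 to 1.04). Against Parp14 the ratio of Parp9 was 0.940 (0.901 to 0.967) and then 1.79 (1.69 to 1.96). The log2 ratio of Parp9 to Dtx3l was higher in Prr33-gRNA by 0.64 and that to Parp14 by 0.93, and neither ratio overlapped between groups, with the permutation p given above. In GENCODE M21 458 exonic bases are shared by Parp9 and Dtx3l, 9.40% of the exonic length of Parp9 and 8.0% of that of Dtx3l, and Parp14 shares 110 bases with the gene model Gm49730 on its own strand. Whether the counting used strand is not stated in the sources used, so reads over the shared bases cannot be assigned.

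Xaf1 (ENSMUSG00000040483), on chromosome 11 at 72301629 to 72313733 on the plus strand, had 239, 229 and 246 CPM in Ctrl-gRNA and 54.9, 52.2 and 52.2 CPM in Prr33-gRNA. The libraries of each group were close together and the groups far apart. Xaf1 fell, with a log2 fold change of -2.17 (SE 0.05, edgeR adjusted p = 8.00e-28). Intervals of 2 SE overlapped between neighbours in the order of folds for Rsad2 and Cmpk2, for Mx2 and Dtx3l, and for Xaf1 and Parp9, and not for the other 6 neighbouring pairs. The SE of Rsad2, Cmpk2 and Mx1 are too small here, as given above.

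**Figure D3:**
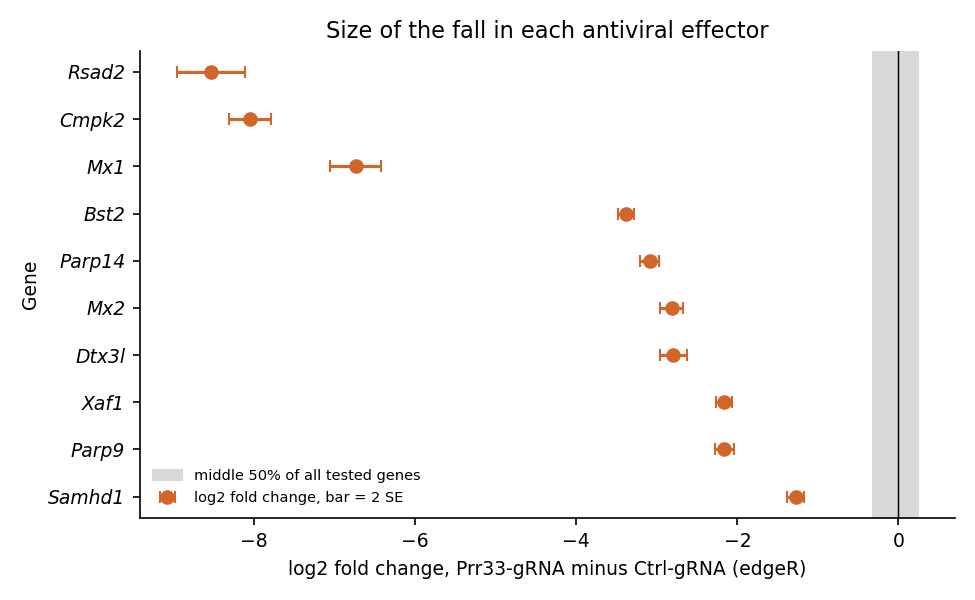
Log2 fold change (edgeR, x axis) of each antiviral effector with bars of 2 SE, beside the middle 50% of all tested genes in grey. Rsad2, Cmpk2 and Mx1 stand apart at -8.53, -8.05 and -6.74, and Samhd1 lies nearest to 0 at -1.28. The bars of Rsad2, Cmpk2 and Mx1 are narrower than their counting intervals.

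The order of the levels differed between the groups. In Ctrl-gRNA the mean FPKM values below Bst2 were 50.5 for Xaf1, 47.2 for Dtx3l, 43.9 for Mx2, 38.1 for Rsad2, 31.3 for Parp14, 29.4 for Parp9, 21.7 for Cmpk2, 16.6 for Samhd1 and 15.6 for Mx1. Among neighbours in this order the library ranges overlapped for Xaf1 and Dtx3l and for Dtx3l and Mx2. In Prr33-gRNA the mean FPKM values below Bst2 were 11.3 for Xaf1, 6.89 for Samhd1, 6.84 for Dtx3l, 6.59 for Parp9, 6.28 for Mx2, 3.70 for Parp14, 0.147 for Mx1, 0.0994 for Rsad2 and 0.0816 for Cmpk2. Samhd1, Dtx3l, Parp9 and Mx2 overlapped from one to the next, as did the last 3. Rsad2 went from above 90.8% of tested genes to above 2.09%, whereas Samhd1 went from above 77.4% to above 56.2%.

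Libraries within a group were close for most of these genes. The SD was 1.55 to 5.47% of the mean CPM over the 10 genes in Ctrl-gRNA. In Prr33-gRNA it was 2.92 to 15.8% for the 7 genes that stayed readily detectable. It was 36.4 to 87.4% for Cmpk2, Mx1 and Rsad2, whose group totals were 19, 31 and 25 counts. Prr33-gRNA replicate 1 had the highest CPM of its group for 8 of the 10 genes, as it did for 31.2% of all tested genes, the exceptions being Rsad2 and Bst2. Ctrl-gRNA replicate 2 was the lowest of its group for 8 of the 10, as it was for 30.6% of all tested genes.

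The rest of the interferon pathway was read from lists chosen with earlier results known. Over all tested genes 26.6% were lower and 25.5% higher, the shares to set beside the counts of each list. Among 19 tested interferon signalling genes the falls numbered 15 and the rises 0 (median log2 fold change -0.55). Irf5 among these falls entered the test through its Ctrl-gRNA levels alone. Usp18, which restrains signalling at the receptor, fell from 303 ± 5.55 to 12.4 ± 1.58 CPM (SD, n = 3). The transcription factor genes Stat2 and Irf9 were lower, with log2 fold changes of -2.05 and -2.26, and Irf9 lies on chromosome 14. The receptor genes Ifnar1 (0.05), Ifnar2 (-0.22) and Ifngr1 (0.25) and the kinase gene Jak1 (0.10) did not pass the test. Scaled by library size alone, which raised the median of all genes to 0.09, Jak1, Ifnar1 and Ifngr1 were called higher. The type I interferon gene Ifnb1 was too low to be tested, with 13, 9 and 16 counts in Ctrl-gRNA and 0 in each Prr33-gRNA library.

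Genes that sense viral nucleic acids were partly lower. Among 14 tested the falls numbered 9 and the rises 0 (median -1.32). Tlr3, a sensor of double-stranded RNA in endosomes, fell by 4.69, and the log2 fold changes of Zbp1, Dhx58 and Ddx58, which encodes RIG-I, were -4.06, -3.50 and -1.83. The adaptor and kinase genes Mavs (0.12), Ticam1 (-0.05), Tbk1 (0.07) and Ikbke (-0.22) and the DNA sensor gene Cgas (-0.24) did not pass, although Mavs and Tbk1 were called higher when scaled by library size alone. Other interferon-induced effectors resembled the 10 genes in direction. Among 35 tested the falls numbered 34, of which 32 were at least 2-fold, and the rises 1 (median -3.69). Among these falls Trim30a, Gbp5, Ifi44l, Psmb9, Psmb8 and Oasl1 entered the test through their Ctrl-gRNA levels alone, as Rsad2, Cmpk2 and Mx1 had. Isg15, Oasl2, Oas2 and Iigp1 had log2 fold changes of -5.62, -4.38, -5.19 and -5.01, and the gene that rose, named after its value was seen, was Ifi27 (0.19). Psmb8 in this list had 139 counts in Ctrl-gRNA and 0 in Prr33-gRNA, at least 50.5-fold lower against 3 counts over the group, and with it at this bound the median was the same.

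Relatives that share a protein family with the 10 genes did not move as one. Among 14 other PARP family genes the falls numbered 7 and the rises 4 (median -0.31). Parp10, Parp11, Parp12 and Zc3hav1, the last encoding the antiviral protein ZAP, had log2 fold changes of -2.51, -2.07, -1.44 and -1.02. Parp16 rose most, by 0.76, and Parp1, which signals DNA damage, Tnks2 and Tiparp rose by 0.21, 0.21 and 0.19. Tnks (0.06), Parp6 (-0.16) and Parp8 (-0.06) did not pass, although Tnks was called higher when scaled by library size alone. Parp3 fell by 0.46. Parp4 (-1.02) and Parp2 (-0.89), also lower, lie on chromosome 14. Genes for ADP-ribose removal and macrodomain proteins gave 3 falls and 2 rises among 8 tested (median -0.15). Parg, which removes poly(ADP-ribose) and lies on chromosome 14, fell by 0.71, and the histone variant gene Macroh2a2 rose from 0.554 ± 0.140 to 11.9 ± 1.69 CPM (SD, n = 3).

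Dynamin relatives of the Mx genes went mostly the other way. Rises numbered 6 and falls 1 among 7 tested (median 0.21). Opa1 and Dnm1l, which act in mitochondrial fusion and fission, rose by 0.37 and 0.31, and Dnm3 rose by 0.91. The 1 fall, of Dnm1 (-0.26), was lost without Ctrl-gRNA replicate 2 or 3 or Prr33-gRNA replicate 1 or 2, and when scaled by library size alone. Of 3 tested deltex relatives of Dtx3l 2 fell and 1 rose, with Dtx3 at -0.30, Dtx2 at -0.21 and Dtx4 at 0.35. Only 1 of these falls was called when scaled by library size alone, without Ctrl-gRNA replicate 1 or without Prr33-gRNA replicate 1 or 3.

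Nucleotide supply genes, set beside Cmpk2 and Samhd1, were more often higher than lower. Rises numbered 8 and falls 2 among 18 tested (median 0.13). Cmpk1, the cytosolic counterpart of Cmpk2, rose from 63.3 ± 3.35 to 84.8 ± 4.48 CPM (SD, n = 3), a log2 fold change of 0.42. Dck, a deoxycytidine kinase, rose by 0.80 and Rrm1, a ribonucleotide reductase subunit, by 0.42, while Guk1 fell by 0.41. In the inhibitor of apoptosis family and its partners, set beside Xaf1, 3 of 11 tested genes rose and 2 fell (median 0.04). Over all tested genes 25.5% rose and 26.6% fell. Birc6 rose by 0.37 and Naip6, near 1 CPM in Ctrl-gRNA, fell by 1.96. Naip6 also entered the test through its Ctrl-gRNA levels alone. Xiap itself was called higher by 0.14, with overlapping groups (edgeR adjusted p = 0.0356), a call lost at the 0.01 threshold. The rises in this list numbered 2 in DESeq2, on both FPKM scales, at that threshold, and without Ctrl-gRNA replicate 1, Ctrl-gRNA replicate 2 or Prr33-gRNA replicate 3.

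**Figure D4:**
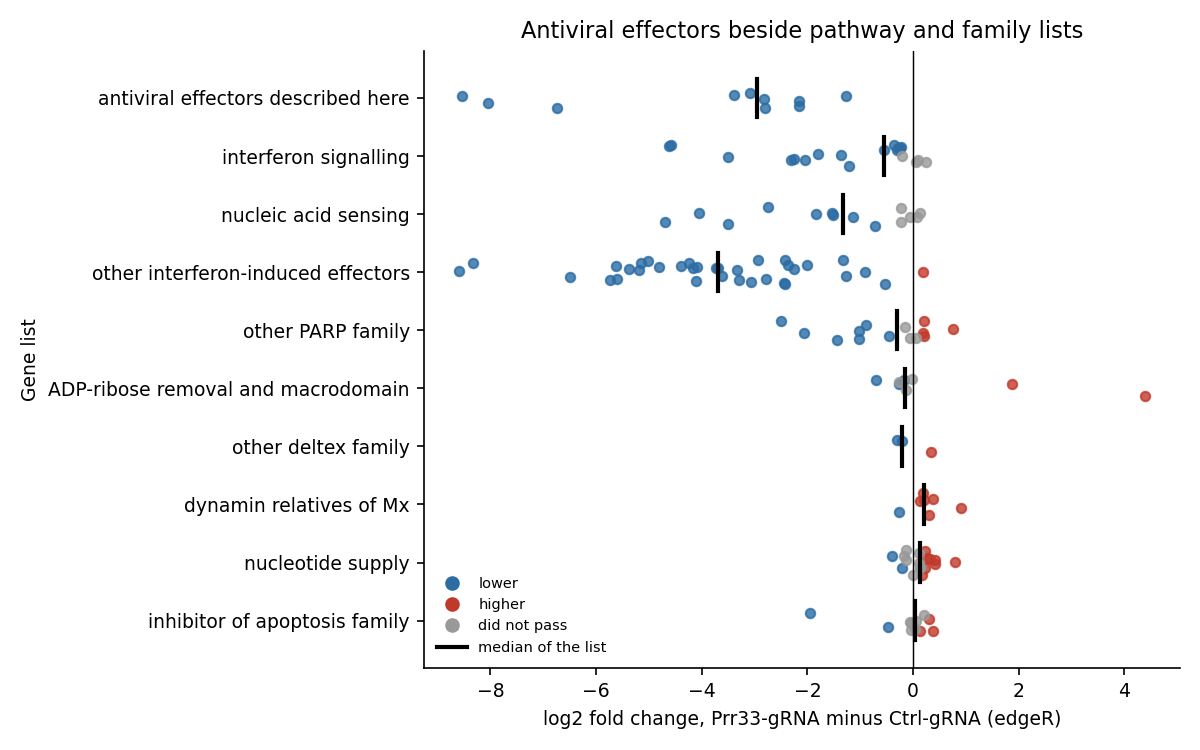
Log2 fold change (edgeR, x axis) of each tested gene in the antiviral effector group and in 9 pathway and family lists, coloured by the call, with the median of each list as a bar. The medians of the antiviral effectors (-2.95) and other interferon-induced effectors (-3.69) lie left of 0. Those of dynamin relatives (0.21) and nucleotide supply genes (0.13) lie close to it.

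Genes that lie near the 10 effectors in the genome were mostly unlike them in size of change. Within 100 kb of any of them 27 other genes were tested, of which 7 fell, 3 rose and 17 did not pass, with a median log2 fold change of -0.02. Over all tested genes 26.6% fell, close to the share of falls here, and 25.5% rose. Kpna1, which lies 6.14 kb from Parp9, was higher (0.24), and Hspbap1, 4.40 kb from Parp14, did not pass (0.17). Mvb12a, 5.47 kb from Bst2, was lower (-0.55), and Slc27a1, the next nearest there, did not pass (0.06). Most of the falls lay at this locus, where Gtpbp3 (-0.34), Ano8 (-0.37), Dda1 (-0.30) and Colgalt1 (-0.16) were also lower. The other tested genes near Bst2 did not pass. Tmprss2, 3.78 kb from Mx2, did not pass at under 1 CPM in both groups (-0.96), and Rbl1 and Soga1, beside Samhd1, did not pass (0.11 and 0.18). Of the 27, the 1 that fell at least 2-fold was Gm43951 near Xaf1 (-1.76), named after its value was seen. The Rsad2 and Cmpk2 locus had no other tested gene within that distance.

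**Figure D5:**
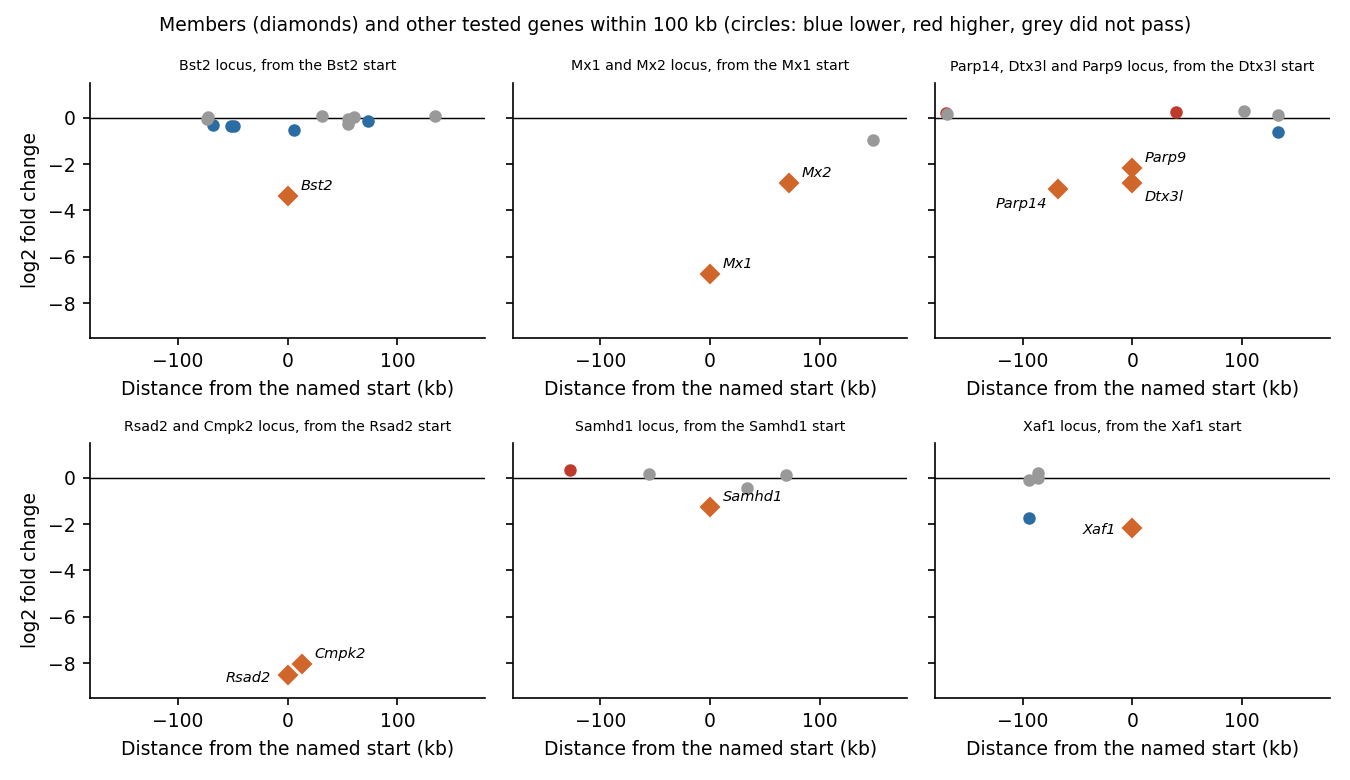
Log2 fold change (y axis) against the distance in kb of each gene's start from the start of the gene named above each panel, for the antiviral effectors (diamonds) and the other tested genes within 100 kb of them (circles). Most circles lie near 0, as with Kpna1 at 0.24 and Mvb12a at -0.55, while the effectors lie between -8.53 and -1.28.

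Genes with the most similar pattern over the 6 libraries were found by the Euclidean distance between log2 CPM values (prior count 3) centred on the Ctrl-gRNA mean, among protein-coding genes other than the 10 effectors themselves. Nearest to Rsad2 among these were Trim30a (distance 1.81), Rftn1 (2.36), Oas1g (3.05), Usp11 (3.26) and Ly6a (3.79). Trim30a and Oas1g are interferon-induced, and Rftn1 and Oas1g had 0 counts in each Prr33-gRNA library. With Prr33-gRNA counts of Rsad2 and these genes at or near 0, the distances from Rsad2 depend on the prior count. Nearest to Bst2 were Sdc3 (0.210), Ifi44 (0.233), Lgals9 (0.275), Fam189b (0.285) and Hsh2d (0.336). Hsh2d had only 2.50 CPM in Ctrl-gRNA and 0.0716 CPM in Prr33-gRNA. Its log2 fold change was -5.01 beside -3.39 for Bst2, and the prior count shrinks differences at such levels. Nearest to Samhd1 were C1qtnf3 (0.0909), Filip1 (0.137), Nrap (0.138), Tnnc1 (0.139) and Trafd1 (0.144), of which Nrap and Tnnc1 encode muscle proteins and Tnnc1 lies on chromosome 14. These distances describe likeness over the 2 groups and 6 libraries only. The similar genes were not all sorted by function, so those not described above may be interferon-induced or muscle genes too.

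Markers of cells that could carry these transcripts into a culture were also read. Of 10 macrophage and monocyte markers 2 were tested and neither passed, with a summed level of 5.65 to 6.91 CPM in Ctrl-gRNA and 3.95 to 5.76 CPM in Prr33-gRNA, and Ptprc, Tyrobp and Adgre1 had 0 counts in every library. Of 8 lymphocyte markers 0 were tested, and their sum was at most 0.553 CPM in any library, with Klrb1c, Nkg7, Cd3e and Ms4a1 at 0. Of 5 dendritic cell markers Flt3, Siglech and Itgax had 0 counts, and the sum of the rest was 11 to 13.2 CPM against 7.29 to 9.29 CPM, most of it Zbtb46, which fell (-0.55). Of 7 endothelial markers 2 were tested and neither passed, with 3.94 to 4.72 CPM against 2.45 to 3.86 CPM and Emcn at 0. Fibroblast and mesenchymal progenitor markers were also lower, by unequal amounts. Of 9 listed 7 were tested and all 7 fell, the sum was 1820 to 1954 CPM against 846 to 910 CPM, and Lum had 0 counts. The log2 fold changes were -6.60 for Ly6a, -4.26 for Col1a1, -2.56 for Pdgfrb and -2.20 for Dcn. Those of Islr, Pdgfra and Col3a1 were -0.71, -0.49 and -0.49. Ly6a, also among the genes most similar to Rsad2, went from 464 to 4.75 CPM and so weighed heavily in the sum. The part of these markers, and of the lower skeletal muscle markers, in the fall of the antiviral effectors was not tested.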

How the data were processed

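RNA-seq of 6 C2C12 libraries, 3 per group, was analysed. The deposited counts are raw whole numbers for each gene and library. FPKM values were deposited by the authors, and each equals the count over gene length and 1 constant per library (0.973 to 1.04 of its total). CASAVA, HISAT2 2.0.5, featureCounts 1.5.0-p3 and the mm10 build are named per the submitters' processing notes, with no role, strand setting or annotation release given in the sources used here. The 333 rows marked as new gene models stayed in library sizes and tests.

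Counts were tested with edgeR 4.0.16 (robust quasi-likelihood F test, filterByExpr, TMM) in R 4.3.3, with 2 groups, no covariate and Benjamini-Hochberg adjustment over all tested genes. SE is the absolute log2 fold change over the root of F, which is too small for genes with few counts in a group, such as Rsad2, Cmpk2 and Mx1. CPM uses TMM-scaled libraries. The test was checked on simulated counts. Alternatives were DESeq2 1.42.0, limma 3.58.1 (voom, and log2 FPKM plus 1 or 0.1), RLE or library-size scaling, other filters, stricter thresholds, a replicate block and leaving out each library.

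The members, lists and tests were chosen with earlier results of these data known. Named genes were the 10 members, Prr33, up to 4 genes per list with the lowest adjusted p, signalling genes that did not pass, up to 2 nearest neighbours per locus and the 5 most similar genes to Rsad2, Bst2 and Samhd1. Ifnb1, Ifi27, Irf5, Psmb8, Psmb9, Gbp5, Ifi44l, Oasl1, Dnm1, Xiap and the sensing genes that did not pass were named after their values were seen. So were Parp1, Parp2, Parp3, Parp4, Parp6, Parp8, Parp16, Tiparp, Tnks, Tnks2, Gm43951, Gtpbp3, Ano8, Dda1 and Colgalt1. Some genes the rule names are not reported here. Nothing in the labels says that libraries of a group are separate cultures, so p-values reflect only how these libraries vary, possibly for technical reasons. Pairs of libraries in a group had a mean chi-square of 2.89 to 5.68 for each gene, above counting noise, and none was treated as a duplicate.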

Additional observations from a re-analysis of the deposited data

How the results depend on the processing

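Each of the 10 antiviral effectors was called lower in each of 17 alternatives (170 values, 0 reversed). The folds of Rsad2, Cmpk2 and Mx1 depend on how values near 0 are treated: with 1 added to FPKM they were -5.16, -4.39 and -3.85, with 0.1 added -7.70, -6.92 and -6.05, and limma-voom gave -9.45 for Rsad2. Leaving out single libraries gave -9.07 to -7.98 for Rsad2, -8.26 to -7.76 for Cmpk2 and -7.21 to -6.31 for Mx1. Same-numbered libraries did not deviate together (correlations -0.01, -0.01 and 0.02), so no large shared effect of the number was seen. Whether they were handled together cannot be told from this. A fit with the replicate block called 3811 genes higher and 3975 lower, and 10 effectors lower. Scaled by library size alone, 5002 genes were higher and 3096 lower (61.8% higher, against 49.0%). Under that scaling 3 signalling and 2 sensing genes were higher, 1 deltex, 0 dynamin and 1 nucleotide supply gene lower, and 8 neighbours higher. Requiring a 2-fold change, which drops smaller changes, left 427 genes higher and 1166 lower. It left 9 signalling genes lower, and 0 of the other effectors, PARP, deltex, dynamin, nucleotide supply and apoptosis genes higher. It left 0 macrodomain, deltex, dynamin and nucleotide supply genes lower, 1 apoptosis gene lower, and 1 neighbour lower and 0 higher. With single libraries left out, signalling genes called higher numbered 0 to 1 (1 without Ctrl-gRNA replicate 3 or Prr33-gRNA replicate 2), deltex genes lower 1 to 2, dynamin genes lower 0 to 1 and neighbours higher 3 to 5 (5 without Ctrl-gRNA replicate 2). On both FPKM scales 1 signalling gene was higher, 1 deltex gene lower and 0 dynamin genes lower. Deltex falls also numbered 1 in limma-voom, in DESeq2 and at an adjusted p below 0.01, where dynamin falls numbered 0, and apoptosis falls numbered 1 with the 1 CPM filter, which tests fewer genes. Counted on the plus strand alone, 1 promoter held the response element core. Except where the setting itself gives it, the cause was not tested. Ratios of paired genes without single libraries, chosen after the data were seen, were 0.59 to 0.72 for Parp9 over Dtx3l, 0.86 to 0.97 for Parp9 over Parp14 and -4.53 to -3.65 for Mx1 over Mx2 (log2). Depth limits Rsad2, Cmpk2 and Mx1 in Prr33-gRNA, where 1 count is 0.050 to 0.0553 CPM.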

Other observations

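Across all genes, the response element core in the promoter went with more falls than the share over all genes. Of 370 tested genes with that core on either strand in any of their promoters in the RefSeq table, which lists several for some genes, 165 were called lower, 44.6%, beside 27.2% of the 10125 tested genes with a promoter in that table. For the gamma-activated site TTCNNNGAA the share was 29.0% (241 of 831). These are counts with no test, and Cmpk2, Samhd1, Xaf1 and Dtx3l were lower with 0 matches to the core in their windows.

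Prr33-gRNA replicate 1 had the highest CPM of its group for 18 of 35 tested genes among the other interferon-induced effectors, against 7 for replicate 2 and 10 for replicate 3, and for 8 of the 10 genes described above.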
